A study of Mus musculus with 4 samples.

Results

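The chemokine genes Ccl2, Ccl3, Ccl4, Ccl5, Ccl7, Cxcl1, Cxcl2, Cxcl10, Cxcl12 and Cx3cl1 were followed through single-cell RNA-Seq (scRNA-Seq) libraries of mouse kidney. They were taken by symbol and are 10 of the 32285 genes that each library lists. The list was drawn up with results of these libraries in view, namely a lower pooled level of Ccl2 in WT-HFD than in WT-ND. The values are therefore a description of these libraries, and no test was made on them.

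The study asked how loss of the kidney glucose transporter SGLT2 changes the response of the kidney to metabolic stress. WT mice were compared with Sweet Pee (SP) mice, which carry a missense mutation of Slc5a2, the gene encoding SGLT2, and are called MT in the labels. There were 4 libraries, 1 library per condition: WT on normal diet (WT-ND), WT on high-fat diet (WT-HFD), SP on normal diet (SP-ND) and SP on high-fat diet (SP-HFD). All mice were male C3H mice (C3H/HeJ in the methods, a strain known for a Tlr4 mutation that blunts its response to endotoxin). They were 18 weeks old after 8 weeks of diet from 10 weeks of age, and HFD gave 60% of calories from fat. The mutation is present in every cell of the SP mice, and how many mice each library came from is not given in the sources used here. Slc5a2 RNA is no check of a missense allele. It was at 300 CPM in proximal tubule-like cells on ND and 236 on HFD for WT, and 41.1 on ND and 84.7 on HFD for SP.

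Each unique molecular identifier (UMI) marks 1 captured RNA molecule, and CPM are the UMIs of a gene per 1000000 UMIs of the cells pooled. The libraries held 13229 to 16385 barcodes, of which 32.7% to 49.8% had 50% or more mitochondrial UMIs and were set aside. The 32280 kept cells (6389 to 9924 per library) held 43532513 to 61781772 UMIs per library, with medians of 3504.5 to 5277 UMIs per cell. Any 2 libraries shared 54 to 77 barcodes, at most 0.522% of the smaller library. Clustering, with all chemokine and chemokine receptor genes left out of the features, gave 33 clusters in 24 classes. A class is called X-like when the markers of X named it. Otherwise, or where its leading gene had been set as an exception, as for Ubd, it carries the names of its leading genes. The Car3-Hsd11b1 cluster (5 cells on ND and 1113 on HFD for WT, and 4 on ND and 5 on HFD for SP) and the Sfrp2-Des cluster (49, 428, 21 and 32 cells) came mostly from WT-HFD.

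Chemokines are small secreted proteins that guide leukocytes by binding G protein-coupled receptors on them. Ccl2 and Ccl7 draw monocytes through Ccr2, Ccl3, Ccl4 and Ccl5 draw monocytes and lymphocytes, Cxcl1 and Cxcl2 draw neutrophils through Cxcr2, and Cxcl10 draws activated T cells through Cxcr3. Cxcl12 holds Cxcr4-bearing cells in tissue, and Cx3cl1 is a membrane-anchored ligand of Cx3cr1. In the kidney, Ccl2 made by injured tubule cells and by macrophages is known as a signal for monocyte entry. By the GENCODE annotation of mm10 (GRCm38), Ccl2 (ENSMUSG00000035385, chr11:82035571-82037453) and Ccl7 (chr11:82045712-82047525) are neighbours on the plus strand of chromosome 11. Ccl4 (chr11:83662584-83664683, plus strand), Ccl3 (chr11:83647844-83649355) and Ccl5 (chr11:83525778-83530518, both minus strand) lie on the same chromosome. Cxcl1 (chr5:90891241-90893115), Cxcl2 (chr5:90903871-90905938) and Cxcl10 (chr5:92346638-92348889) are on chromosome 5, Cxcl12 (chr6:117168535-117181367) is on chromosome 6 and Cx3cl1 (chr8:94772009-94782427) is on chromosome 8. Ccl2 overlaps Gm17268 and Cxcl10 overlaps Art3, each on the opposite strand, and whether the counting used strand is not given in the sources used here.

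Over all kept cells, most of the 10 genes had their highest levels in the HFD libraries, and Ccl2 had its lowest level in WT-HFD. A gene was called higher or lower between 2 libraries if it had at least 20 UMIs in both together, differed by at least 1.5-fold and had a 95% counting interval of the ratio that excluded no change. In WT-HFD against WT-ND, 5 members were called higher (Ccl3, Ccl4, Ccl5, Cxcl1 and Cxcl2), where 7.95% of the 16500 genes compared were called higher, and 1 was called lower (Ccl2), where 4.44% of those genes were called lower. In SP-HFD against SP-ND, 6 were called higher (Ccl3, Ccl4, Ccl5, Ccl7, Cxcl2 and Cxcl10) against 9.4% of 16355 genes, and 0 were called lower against 3.88%. The median log2 ratio of the members was 0.60 in WT and 0.84 in SP, beside 0.02 and 0.09 over all genes compared. These intervals cover counting error only and not the spread between mice, and fewer cells of a type and less RNA per cell cannot be told apart in a pooled level.

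Between genotypes, fewer members differed. In SP-ND against WT-ND, Cxcl1 and Cxcl10 (2 members) were called higher against 6.9% of 16246 genes, and Ccl5 alone (1 member) was called lower against 4.2%. In SP-HFD against WT-HFD, Ccl2, Ccl7 and Cxcl10 (3 members) were called higher against 7.89% of 16537 genes, and 0 members were called lower against 3.93%. The median log2 ratio of the members was 0.27 on ND and 0.34 on HFD, beside 0.10 and 0.19 over all genes compared. The comparisons share libraries, so their values are set side by side and not compared further.

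**Figure D1:**
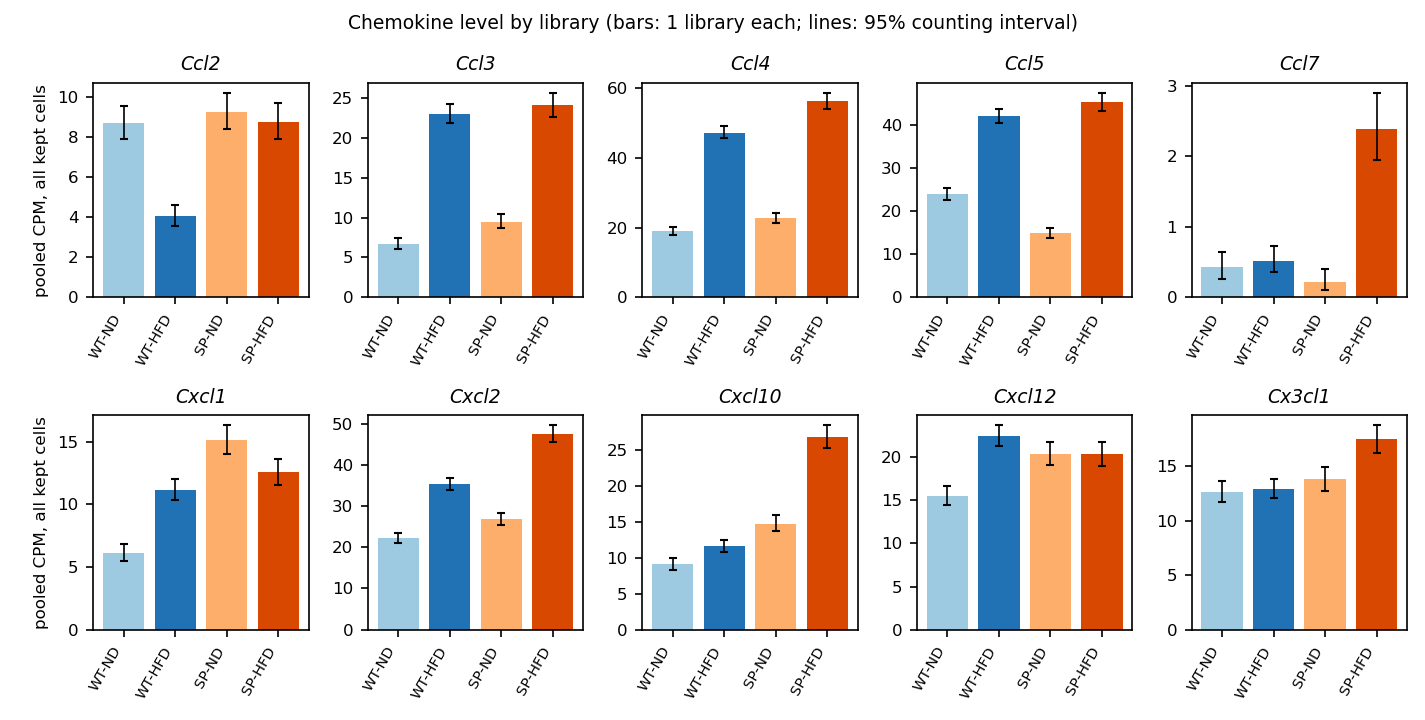
Pooled CPM of each chemokine over all kept cells (vertical axis, own scale for each gene) in the 4 libraries (horizontal axis), with lines for the 95% counting interval. The Ccl2 bar of WT-HFD stands at 4.06 CPM below the 8.68 to 9.26 CPM of the other 3 libraries, while both HFD bars lie above both ND bars for Ccl3, Ccl4, Ccl5 and Cxcl2.

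The class makeup of the libraries moved with these levels. Macrophage-like cells held 1.28% of the kept UMIs on ND and 2.25% on HFD for WT, and 1.81% on ND and 3.29% on HFD for SP, and proximal tubule-like cells held 40.1%, 23.9%, 27.6% and 17.8%. When every class with at least 50 cells in each library was given equal weight, 3 members were called higher in WT (Ccl3, Ccl4 and Ccl7) and 2 in SP (Ccl5 and Ccl7), and the WT ratios of Cxcl1 and Cxcl2 turned to -0.066 and -0.075. Leaving out both clusters held mostly by WT-HFD added Cxcl12 to the members called higher in WT and changed no other call of a member.

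**Figure D2:**
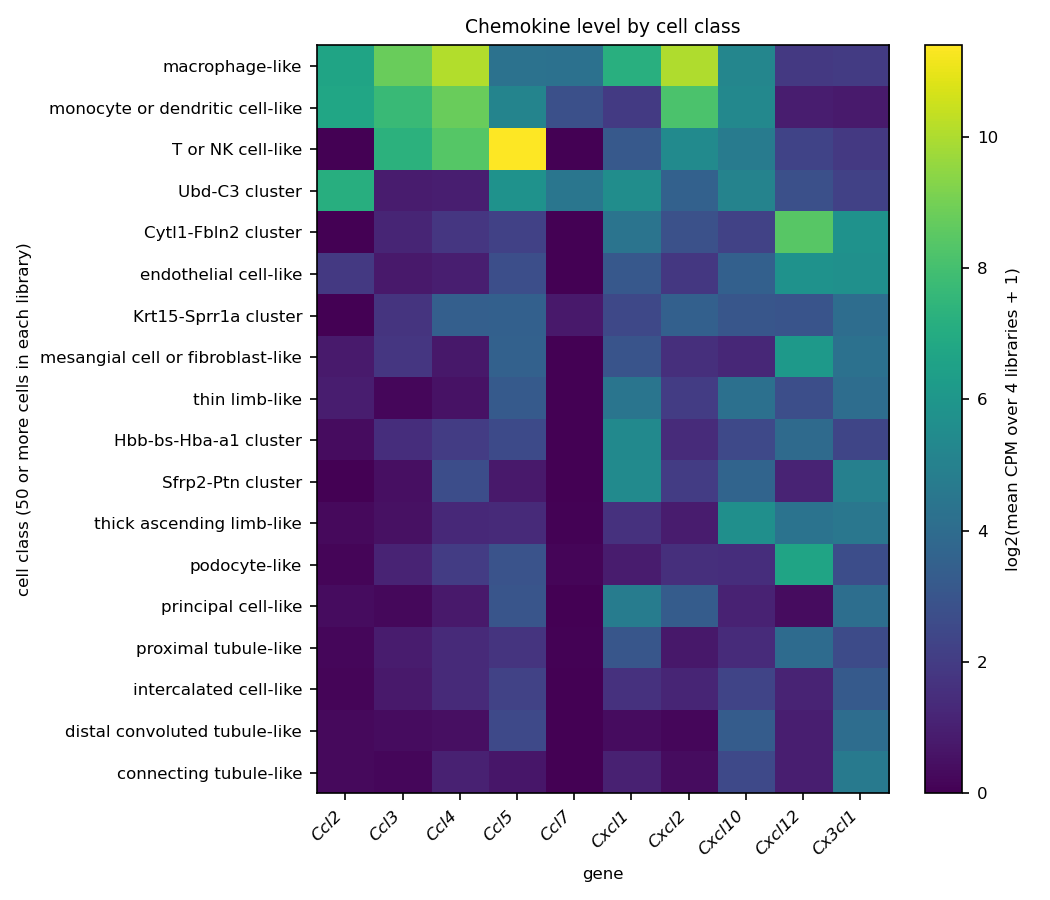
Level of each chemokine (columns) in each class with at least 50 cells in every library (rows), as log2 of the mean CPM over the 4 libraries plus 1. Ccl2 is highest in the Ubd-C3 cluster and in the macrophage-like and monocyte or dendritic cell-like classes, Ccl5 in T or NK cell-like cells, Cxcl10 in thick ascending limb-like cells and Cxcl12 in the Cytl1-Fbln2 cluster. For Cxcl10 this order is within the spread over the 4 libraries. It was at 49.9 ± 41.2 CPM (SD) in thick ascending limb-like and 39.2 ± 48.4 in monocyte or dendritic cell-like cells.

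Ccl2, the main monocyte attractant, was carried by few cells. In WT it had 451 UMIs in 49 cells on ND and 251 in 52 cells on HFD, and in SP it had 430 in 61 cells on ND and 381 in 58 cells on HFD. The pooled levels, in the order WT-ND, WT-HFD, SP-ND, SP-HFD, which is kept wherever 4 values are listed, were 8.68 CPM (95% counting interval 7.89 to 9.51), 4.06 (3.58 to 4.60), 9.26 (8.40 to 10.2) and 8.75 (7.90 to 9.68). Over all kept cells WT-HFD alone was low, and the other 3 intervals overlapped. The HFD/ND ratio (log2) came to -1.09 (-1.32 to -0.87) in WT and -0.08 (-0.28 to 0.12) in SP, and that of SP to WT was 0.09 (-0.10 to 0.29) on ND and 1.11 (0.87 to 1.34) on HFD. The 3 cells with the most Ccl2 UMIs held 59.2% of the UMIs on ND and 26.7% on HFD for WT, and 46.0% on ND and 34.6% on HFD for SP.

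The class with the most Ccl2 UMIs differed between diets. On ND it was the Ubd-C3 cluster (349 UMIs in WT and 258 in SP, against 50 and 84 in macrophage-like cells), and on HFD it was the macrophage-like cells (120 in WT and 203 in SP, against 33 and 116 in the Ubd-C3 cluster). The cluster was named for Ubd, which encodes the ubiquitin-like protein FAT10, and complement C3. Summed over the 4 libraries, it held 49.97% of all Ccl2 UMIs, macrophage-like cells 30.2%, monocyte or dendritic cell-like cells 14.4% and endothelial cell-like cells 2.05%. The mean over the 4 libraries was 140 ± 82.2 CPM (SD, n = 4 libraries) in the Ubd-C3 cluster, 107 ± 18.3 in monocyte or dendritic cell-like cells, 101 ± 29.2 in macrophage-like cells and 2.66 ± 3.14 in endothelial cell-like cells. The first 3 of these classes did not differ beyond their spread over the libraries, and the gap to the endothelial cell-like class exceeded it. This spread, here and below, is over 4 conditions and is not one of replicates. Library by library, the Ubd-C3 cluster was the highest of the 3 in WT-ND, SP-ND and SP-HFD and the lowest in WT-HFD. In T or NK cell-like cells, Ccl2 was at 0 UMIs in all 4 libraries.

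The Ubd-C3 cluster had 207 cells on ND and 178 on HFD for WT, and 136 on ND and 88 on HFD for SP. Most of them held no UMI of the genes it is named for. C3 was found in 69, 28, 39 and 13 of these cells and Ubd in 66, 41, 27 and 9, in the same order and without correction for depth. The WT-HFD cells of the cluster also held more markers of several other classes. Thick ascending limb markers summed to 1277 CPM there against 322 to 392 in the other libraries, and principal cell markers to 280 against 50.4 to 76.4. Not all lists followed this, as thin limb markers were at 73.9 against 83.5 to 215. Ccl5 was found in 5.31%, 22.5%, 0.735% and 1.14% of the cluster's cells, without correction for depth. Whether this makeup bears on the Ccl2 level of the cluster was not tested. It carried the markers of the early proximal tubule, such as the endocytic receptor Lrp2 and the phosphate transporter Slc34a1, with a summed level of 5537 to 6145 CPM in each library against 1285 to 3192 CPM in all other cells, and all 9 markers of that list were present. It also held 464 to 679 CPM of the 6 parietal epithelial cell markers, against 179 to 199 CPM in other cells. Of the 9 macrophage markers, 4 were at 0 in WT-ND, SP-ND and SP-HFD and 2 were at 0 in WT-HFD, C1qa, C1qb and C1qc were at 6.66 CPM or less, and Adgre1 was at 0 in every library. The summed macrophage list was nonetheless at 958 to 1244 CPM, nearly all of it Apoe (602 to 854 CPM) and Cd81 (324 to 421 CPM), which epithelial cells also express. By mean log2 difference from all other cells, the parietal epithelial cell markers came first (1.58) and the early proximal tubule markers next (1.52). Without integration these values were 2.43 and 1.31. The markers alone would thus have named the cluster parietal epithelial cell-like. Its leading gene Ubd had been set as an exception, so the cluster was given no cell type name.

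Within the Ubd-C3 cluster, Ccl2 stood at 202 CPM (349 UMIs) on ND and 22.0 (33 UMIs) on HFD for WT, and 148 (258 UMIs) on ND and 189 (116 UMIs) on HFD for SP. Only WT-HFD was low. The diet log2 ratio came to -3.20 (-3.76 to -2.69) in WT and 0.35 (0.02 to 0.67) in SP. Without the 3 cells richest in Ccl2 in each library, the cluster was at 49.1 CPM on ND and 0 on HFD for WT, and 41.3 on ND and 6.88 on HFD for SP. SP-HFD was then low as well, and the SP ratio turned to -2.59. The cluster's Ccl2 UMIs came from 9 cells on ND and 3 on HFD for WT, and 15 on ND and 5 on HFD for SP. The 3 highest cells of WT held 101, 89 and 77 UMIs on ND and 31, 1 and 1 on HFD, and those of SP held 123, 36 and 29 on ND and 72, 24 and 16 on HFD. Thus 1 cell carried nearly all of the cluster's Ccl2 in WT-HFD, and 3 cells carried 96.6% of it in SP-HFD.

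**Figure D3:**
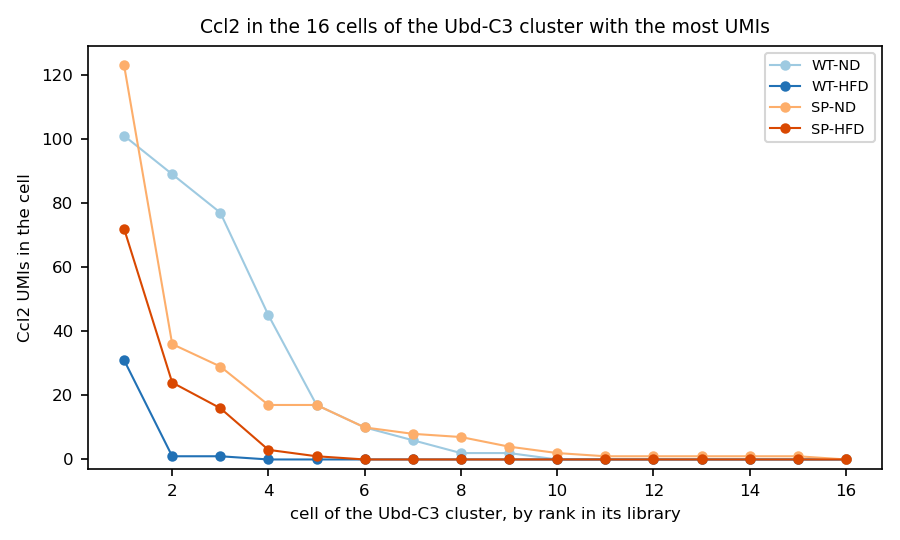
Ccl2 UMIs (vertical axis) in the 16 cells with the most Ccl2 of the Ubd-C3 cluster, ordered by rank within each library (horizontal axis), 1 line per library. At 10 or more UMIs the lines hold 6 cells each for WT-ND and SP-ND, 3 for SP-HFD and 1 for WT-HFD.

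**Figure D4:**
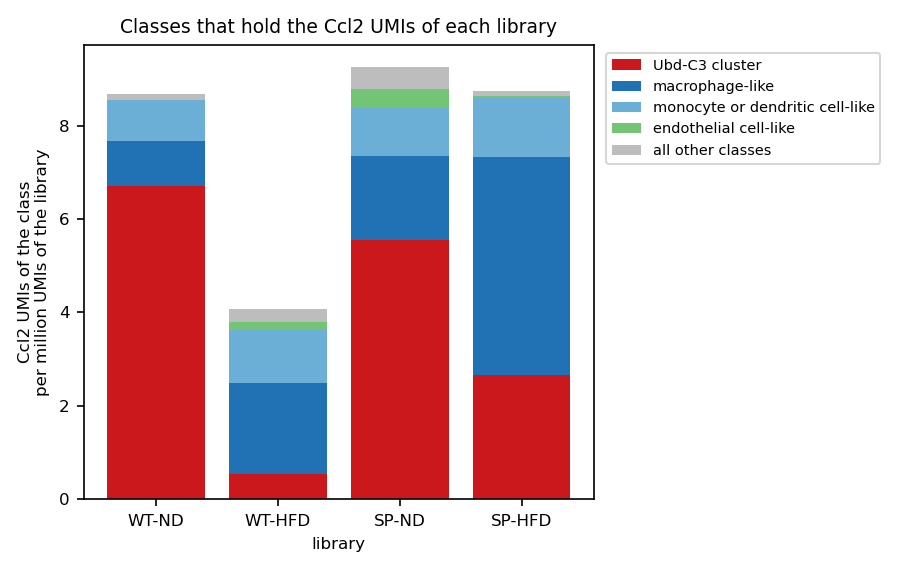
Ccl2 UMIs of each class per 1000000 UMIs of its library (vertical axis), stacked by class for each library (horizontal axis), so that a bar's height is the pooled CPM. The red Ubd-C3 portion nearly disappears in WT-HFD and the blue macrophage-like portion is largest in SP-HFD.

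Outside the Ubd-C3 cluster the diet ratio of Ccl2 turned. The level was 2.03 CPM (102 UMIs) on ND and 3.62 (218 UMIs) on HFD for WT, and 3.85 (172 UMIs) on ND and 6.17 (265 UMIs) on HFD for SP. WT-ND was then the lowest library, with a ratio of SP-ND to WT-ND of 0.92. Both HFD libraries were above the ND library of their genotype, with log2 ratios of 0.83 in WT and 0.68 in SP. With the whole cluster kept but without the 3 cells richest in Ccl2 in each library, the ratios were -0.25 in WT and 0.20 in SP. The lower level in WT-HFD than in WT-ND was therefore held by few cells of 1 cluster. Whether that difference is one of diet or of which cells were sampled cannot be told apart with 1 library per condition. Against SP-HFD, WT-HFD stayed lower outside the cluster as well (3.62 against 6.17 CPM). The log2 ratio of SP-HFD to WT-HFD was 0.77 to 1.17 over 10 alternatives.

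In macrophage-like cells, Ccl2 was at 75.1 CPM (50 UMIs) on ND and 86.4 (120 UMIs) on HFD for WT, and 99.8 (84 UMIs) on ND and 142 (203 UMIs) on HFD for SP. SP-HFD was the highest, and the HFD/ND ratio (log2) came to 0.20 (-0.29 to 0.71) in WT and 0.51 (0.13 to 0.89) in SP. In SP-ND 1 cell held 39 of the 84 UMIs, and without the 3 richest cells of the class in each library the SP levels were 31.7 CPM on ND and 97.0 on HFD, with a ratio of 1.61 (1.00 to 2.28). The UMIs lay in 7.21% to 9.32% of macrophage-like cells, and their share of the library's UMIs, given above, was larger on HFD in both genotypes. In monocyte or dendritic cell-like cells the levels were 131, 111, 89.0 and 96.3 CPM in the same order, and the diet ratios of -0.23 (-0.79 to 0.34) and 0.11 (-0.48 to 0.71) both had intervals across 0. In proximal tubule-like cells, which serve as background here, Ccl2 had 0 to 3 UMIs per library, and after each cell was thinned to 1000 UMIs it was found in 0 of 2018, 1089, 886 and 577 cells. The thinned share of Ubd-C3 cells was 2.91% on ND and 0 of 178 cells on HFD for WT, and 5.88% on ND and 3.41% on HFD for SP, with unthinned shares of 4.35%, 1.69%, 11.03% and 5.68%. The exact Clopper-Pearson 95% interval reached 2.05% for the 0 of 178 cells and ran from 1.08% to 6.23% for WT-ND, so these intervals overlapped.

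The Ubd-C3 cells rich in Ccl2 differed from the pool of all other cells of the cluster in the levels of several genes. In all, 16 of its 609 cells had 10 or more Ccl2 UMIs (6 on ND and 1 on HFD for WT, and 6 on ND and 3 on HFD for SP), and their median depth was 11843 to 19588 UMIs against 5211 to 10600 in the other cells. C3 was found in 16 of the 16 (866 CPM against 172 in the other 593 cells), Ubd in 13 (352 against 87.0), the adhesion genes Vcam1 in 15 (596 against 117) and Icam1 in 16 (172 against 29.6), and the NF-κB inhibitor Nfkbia in 14 (566 against 114). Of the other 593 cells, C3 was also found in 133, Ubd in 130 and Vcam1 in 146. The 16 cells were not compared with those cells alone, so these traits are not shown to be particular to them. The tubule genes Lrp2 (369 against 903 CPM) and Slc34a1 (305 against 2330) were lower, and Havcr1, which encodes the injury marker KIM-1, was found in 1 cell. C1qa, C1qb, C1qc and the pan-leukocyte gene Ptprc were at 0 UMIs in these 16 cells, while Csf1r was found in 5 and Cd74, the invariant chain of MHC class II, in 16 (948 CPM against 394).

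Among genes found in at least 12 of the 16 cells, those with the largest log2 difference from the other cells after Ccl2 itself were Pdpn (3.65), which encodes podoplanin, the small heat shock gene Hspb1 (3.26), Serpinb9 (3.21), an inhibitor of granzyme B, and Relb (3.20), a subunit of NF-κB. Other chemokines were found in the same cells, with Cxcl10 in 10, Cxcl1 in 8 and Ccl7 in 3 of the 16. In the other 593 cells, Cxcl10 was found in 42, Cxcl1 in 71 and Ccl7 in 0. The cells were chosen by their Ccl2 UMIs and are deeper than the rest, so these shares are descriptions. The ranked genes passed a filter on the 16 cells and were ordered by their excess in them. Their direction was thus fixed by the choice, and the differences are descriptions too.

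Ccl7, the neighbour of Ccl2 and also a ligand of Ccr2, was the rarest member, with 22 UMIs on ND and 32 on HFD for WT, and 10 on ND and 104 on HFD for SP (0.423, 0.518, 0.215 and 2.39 CPM). SP-HFD stood above the other libraries, with a log2 ratio of 3.47 (2.54 to 4.57) to SP-ND and 2.21 (1.62 to 2.83) to WT-HFD. In SP-HFD, 99 of the 104 UMIs lay in 3 cells, 1 Ubd-C3 cell with 48 and macrophage-like cells with 33 and 18. Those cells also held 72, 13 and 36 UMIs of Ccl2. Without the 3 cells richest in Ccl7 in each library the ratio of SP-HFD to WT-HFD turned to -0.34. Over all libraries 29 cells held Ccl7 and 220 held Ccl2, and the 14 that held both were 48.3% of the Ccl7 cells and 6.36% of the Ccl2 cells.

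Ccl3 and Ccl4, which encode MIP-1α and MIP-1β, were leukocyte transcripts and were higher on HFD in both genotypes. Ccl3 was at 6.73 CPM on ND and 23.0 on HFD for WT, and 9.49 on ND and 24.1 on HFD for SP. Ccl4 was at 18.9, 47.3, 22.8 and 56.3 CPM in the same order. For both genes the 2 HFD libraries lay above the 2 ND libraries without overlap. The diet log2 ratio came to 1.77 (1.60 to 1.95) in WT and 1.34 (1.18 to 1.51) in SP for Ccl3, and 1.32 (1.22 to 1.43) and 1.31 (1.20 to 1.41) for Ccl4.

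Macrophage-like cells held 61.1% of the Ccl3 UMIs and 64.1% of those of Ccl4. Within them, Ccl3 was at 379, 572, 353 and 452 CPM and Ccl4 at 1084, 1305, 767 and 1099.5 CPM. The diet ratios there were smaller than over all cells, at 0.60 (0.39 to 0.81) in WT and 0.36 (0.16 to 0.56) in SP for Ccl3, and at 0.27 (0.14 to 0.40) and 0.52 (0.39 to 0.65) for Ccl4. The share of macrophage-like cells with a UMI, after thinning to 1000 UMIs, was 18.8% to 20.9% for Ccl3 and 25.6% to 32.8% for Ccl4, and in proximal tubule-like cells at most 0.735% and 0.918%, both in WT-HFD. In monocyte or dendritic cell-like cells the WT ratio was larger, 2.11 (1.55 to 2.72) for Ccl3 and 2.11 (1.67 to 2.59) for Ccl4, from 84.1 to 363 CPM and from 133 to 576 CPM. In SP the same class gave 0.67 (0.26 to 1.10) and 0.46 (0.21 to 0.70). Neutrophil-like cells had the highest mean level of both genes (702 and 1440 CPM), but only 40 cells in WT-HFD.

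Ccl5, which encodes the T cell chemokine RANTES, was at 23.9 CPM on ND and 42.1 on HFD for WT, and 14.9 on ND and 45.3 on HFD for SP. Both HFD libraries were high and SP-ND was the lowest. The HFD/ND ratio (log2) came to 0.81 (0.71 to 0.91) in WT and 1.61 (1.48 to 1.74) in SP, and that of SP-ND to WT-ND was -0.69 (-0.83 to -0.55). T or NK cell-like cells held 82.6% of its UMIs, at 2344, 3682, 1849 and 2829 CPM, and their mean of 2676 ± 781 CPM (SD, n = 4 libraries) was far above the 54.5 ± 46.5 CPM of the Ubd-C3 cluster, the next class of at least 50 cells. Within them the diet ratios were alike in size, 0.65 (0.54 to 0.77) in WT and 0.61 (0.48 to 0.75) in SP. T or NK cell-like cells made up 0.762%, 0.899%, 0.731% and 1.44% of the UMIs of the libraries. Ccl5 was found in 31.5% to 37.3% of T or NK cell-like cells after thinning, and the 3 highest cells held 16.5% to 32.3% of the class's Ccl5 UMIs.

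Proximal tubule-like cells held Ccl5 at 0.336 CPM on ND and 7.65 on HFD for WT, and 0.234 on ND and 1.03 on HFD for SP. Ccl4 in the same cells was at 0.240, 4.94, 0.0781 and 0.903 CPM. WT-HFD was the highest for both, and the part of free RNA in these counts was not tested. With 10% of each class's UMIs taken as free RNA and subtracted, none of the diet and genotype ratios computed for the members within their main classes changed direction. The proximal tubule-like values were not among those ratios. The subtraction takes 10% of the library's pooled level of a gene, and the main classes stood above that level. Little could therefore change there, and nothing follows for the proximal tubule-like cells.

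Cxcl1 and Cxcl2, the neutrophil attractants, and Cxcl10, the T cell attractant, are textbook targets of NF-κB and, for Cxcl10, of interferon. The start sites of these 3 genes alone are shown. All 3 were called in the diet or genotype comparisons. Ccl3 was called as well and had a promoter entry, but it is not shown and held no match to the motifs marked here. Of the 10 genes, 6 matched the RefSeq promoter table (GRCm38.p6), and the 250 bases before the start are given 5′ to 3′ on the strand of the gene, with matches to the NF-κB consensus and, in Cxcl10, to the interferon response motif (GAAA, any 2 bases, GAAA) in capitals.
Cxcl1 (chr5:90890995-90891244, plus strand): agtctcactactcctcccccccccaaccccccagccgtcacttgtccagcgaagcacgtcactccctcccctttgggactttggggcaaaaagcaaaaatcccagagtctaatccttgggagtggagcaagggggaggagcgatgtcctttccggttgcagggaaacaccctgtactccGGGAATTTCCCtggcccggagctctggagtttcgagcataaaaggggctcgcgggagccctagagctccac
Cxcl2 (chr5:90903649-90903898, plus strand): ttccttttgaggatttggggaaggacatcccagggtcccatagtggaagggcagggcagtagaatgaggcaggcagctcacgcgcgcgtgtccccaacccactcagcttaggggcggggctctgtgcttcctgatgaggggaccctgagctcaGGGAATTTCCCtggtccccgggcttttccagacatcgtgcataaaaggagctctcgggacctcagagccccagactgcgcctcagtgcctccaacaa
Cxcl10 (chr5:92348890-92349139, minus strand): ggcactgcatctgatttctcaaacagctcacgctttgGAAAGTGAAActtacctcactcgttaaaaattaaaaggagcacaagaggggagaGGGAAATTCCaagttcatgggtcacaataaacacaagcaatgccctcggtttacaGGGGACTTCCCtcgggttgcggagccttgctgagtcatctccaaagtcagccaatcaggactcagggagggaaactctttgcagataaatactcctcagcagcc

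The NF-κB match began 71 bases before the start of Cxcl1 and 97 bases before that of Cxcl2, and Cxcl10 held 2 places, at 159 and 104 bases. These distances are from the RefSeq start. For Cxcl1 and Cxcl2 that start lies inside the GENCODE span given above, so the last bases shown for them fall within that span. The interferon response match began 213 bases before the start of Cxcl10. Both strands were searched, and matches that overlap were taken as 1 place. Of 32851 promoters of this length, 7.25% held the NF-κB consensus, 2.98% held the interferon response motif, 6.75% held TGANTCA, the AP-1 motif, and 12.4% held TATAAA. Cxcl10 also held TGANTCA, Cx3cl1 held TATAAA, and Ccl3 and Cxcl12 held none of the 4 motifs in this window. A match of letters is a description and not a bound site.

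Cxcl1 was at 6.14 CPM on ND and 11.2 on HFD for WT, and 15.1 on ND and 12.5 on HFD for SP. WT-ND was the lowest. SP-ND was the highest, and its interval (14.0 to 16.3) overlapped neither that of WT-HFD (10.3 to 12.0) nor that of SP-HFD (11.5 to 13.6). The diet log2 ratio came to 0.86 (0.67 to 1.06) in WT and -0.27 (-0.43 to -0.11) in SP, and that of SP-ND to WT-ND was 1.30 (1.11 to 1.50). It was spread over many classes, with 28.3% of its UMIs in macrophage-like cells (88.7, 129, 176 and 176 CPM) and 14.9% in proximal tubule-like cells (0.719, 8.47, 9.06 and 10.3 CPM). The WT-ND library was thus lowest in both classes. In proximal tubule-like cells the ratio of WT-HFD to WT-ND was 3.56 (2.78 to 4.44), whereas that of SP-HFD to SP-ND was 0.19 (-0.24 to 0.61).

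Principal cell-like cells of the collecting duct went the other way. Cxcl1 there was at 42.4 CPM on ND and 6.40 on HFD for WT, and 54.3 on ND and 3.04 on HFD for SP. Both ND libraries were high and both HFD libraries low, with log2 ratios of -2.73 (-3.81 to -1.78) and -4.16 (-5.64 to -2.98). In the Ubd-C3 cluster Cxcl1 was at 30.1, 56.6, 89.2 and 11.4 CPM, so that SP-HFD, which had a high Ccl2 level in this cluster, had the lowest Cxcl1.

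Cxcl2 was at 22.2 CPM on ND and 35.4 on HFD for WT, and 26.8 on ND and 47.4 on HFD for SP. The HFD libraries were above the ND libraries, with log2 ratios of 0.67 (0.57 to 0.78) in WT and 0.82 (0.72 to 0.93) in SP. Macrophage-like cells held 68.9% of its UMIs. Within them the level was 1153, 1088, 891 and 1088 CPM, and the diet ratio in WT was -0.08 (-0.21 to 0.04) and in SP 0.29 (0.16 to 0.42). The higher pooled level in WT-HFD thus went with a larger share of macrophage-like UMIs and not with a higher level within the class. Neutrophil-like cells had more Cxcl2 per UMI, at 2249, 1542, 2686 and 3962 CPM from 63, 40, 59 and 57 cells.

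Cxcl10 was at 9.14 CPM on ND and 11.7 on HFD for WT, and 14.8 on ND and 26.9 on HFD for SP. SP-HFD was the highest, with log2 ratios of 0.86 (0.73 to 1.00) to SP-ND and 1.20 (1.07 to 1.34) to WT-HFD. With equal weight for each class these ratios were 0.32 and 0.20, and neither was called. Thick ascending limb-like cells, an epithelial class, held 51.8% of its UMIs summed over the libraries, at 36.8, 12.5, 41.7 and 109 CPM. They held the most in WT-ND, SP-ND and SP-HFD, but in WT-HFD they held 95 of 720 UMIs, and the Car3-Hsd11b1 cluster, found mostly in that library, held 202 (24.4 CPM in 76 cells). In thick ascending limb-like cells WT-HFD was the lowest and SP-HFD the highest, and the diet ratio in WT was -1.55 (-1.91 to -1.20) and in SP 1.38 (1.21 to 1.56). The UMIs lay in 46, 34, 50 and 85 cells, of which the 3 highest held 24.8% to 40.1% per library, and without those 3 the levels were 27.8, 8.08, 25.1 and 71.7 CPM in the same order of libraries. The distal convoluted tubule-like cells of SP-HFD also held Cxcl10, at 30.3 CPM against 0.650 to 3.44 in the other libraries. The 3 cells of SP-HFD with the most Cxcl10 held 307 UMIs, against 286 in the 3 highest thick ascending limb-like cells. Not all of those cells thus lay in the thick ascending limb-like class. The spread over distal convoluted tubule-like cells was not examined, so their level may rest on very few cells.

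In macrophage-like cells Cxcl10 was at 12.0 CPM on ND and 45.4 on HFD for WT, and 21.4 on ND and 65.7 on HFD for SP. Both HFD libraries were high, with log2 ratios of 1.92 (0.85 to 3.19) and 1.62 (0.88 to 2.44). The thinned share of cells with Cxcl10 in thick ascending limb-like cells was 1.57%, 1.06%, 1.98% and 3.43%, and in proximal tubule-like cells it was at most 0.275%.

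Cxcl12, the homeostatic ligand of Cxcr4, was at 15.5 CPM on ND and 22.5 on HFD for WT, and 20.4 on ND and 20.4 on HFD for SP, and the diet ratios of 0.54 (0.41 to 0.66) in WT and 0.00 (-0.14 to 0.13) in SP both stayed under 1.5-fold. The level per class was highest in the Cytl1-Fbln2 cluster (459, 245, 365 and 324 CPM, mean 348 ± 89.1, SD, n = 4 libraries). Summed over the libraries, podocyte-like cells held 20.8% of the UMIs, at 111, 80.0, 141 and 69.7 CPM, and proximal tubule-like cells 17.8%. Podocyte-like cells held more on ND (224 against 119 UMIs in WT and 272 against 57 in SP), and proximal tubule-like cells held more on HFD (333 against 199 and 208 against 143). In podocyte-like cells both HFD libraries were lower than the ND library of their genotype, with ratios of -0.47 (-0.76 to -0.19) and -1.02 (-1.32 to -0.72).

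Proximal tubule-like cells showed the opposite order for Cxcl12. They stood at 5.71 CPM (119 UMIs) on ND and 22.6 (333 UMIs) on HFD for WT, and 4.45 (57 UMIs) on ND and 26.8 (208 UMIs) on HFD for SP. Both HFD libraries were high, with log2 ratios of 1.98 (1.68 to 2.30) in WT and 2.59 (2.16 to 3.04) in SP. The share of these cells with Cxcl12, thinned to 1000 UMIs, was 0.396%, 2.20%, 0.113% and 1.73%, and unthinned it was 5.19%, 21.5%, 5.86% and 25.0%. In endothelial cell-like cells the diet ratio in WT was 0.49 (0.20 to 0.79) and in SP -0.78 (-1.18 to -0.39), from 61.4, 86.1, 45.05 and 26.2 CPM.

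Cx3cl1, also called fractalkine, was the steadiest member. It was at 12.7 CPM on ND and 12.9 on HFD for WT, and 13.8 on ND and 17.5 on HFD for SP, and no comparison reached 1.5-fold. The UMIs lay in 523 to 692 cells per library, and no cell held more than 9. Thick ascending limb-like cells held 23.9% of them (24.4, 20.2, 18.7 and 24.7 CPM) and endothelial cell-like cells 22.0% (50.1, 47.2, 53.7 and 56.6 CPM). The mean of endothelial cell-like cells, 51.9 ± 4.13 CPM, did not differ beyond the spread from the 55.7 ± 28.4 CPM of the Cytl1-Fbln2 cluster.

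**Figure D5:**
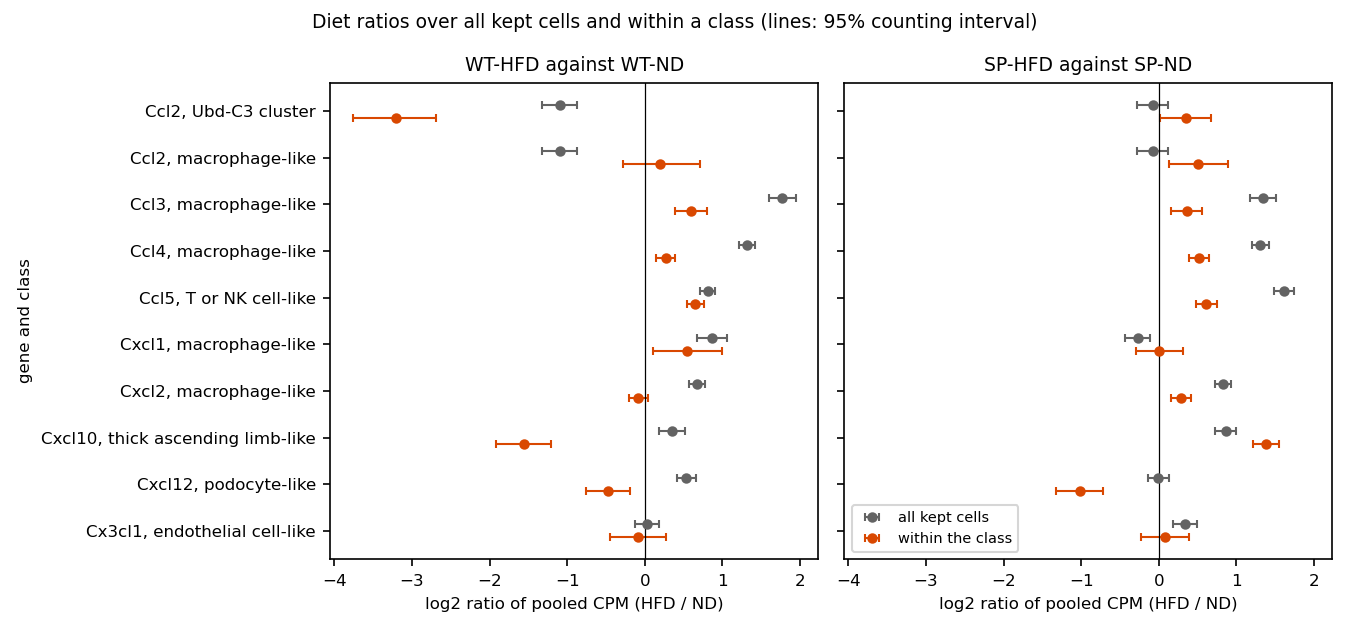
Log2 ratio of HFD to ND (horizontal axis, the same scale in both panels) for each gene over all kept cells (grey) and within a class that holds much of it (orange, with both the Ubd-C3 cluster and macrophage-like cells for Ccl2), in WT (left) and SP (right), with lines for the 95% counting interval. For Ccl2 in the Ubd-C3 cluster and Cxcl10 in thick ascending limb-like cells the WT and SP values lie on opposite sides of 0, which for Ccl2 rests on 3 cells of SP-HFD (-2.59 in SP without the 3 richest cells of each library), and for Ccl3, Ccl4 and Cxcl2 the orange points lie nearer to 0 than the grey ones.

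Apart from the scavenging Ackr receptors, the receptors of these ligands lay mostly on leukocytes. Ccr2, the receptor of Ccl2 and Ccl7, had its highest mean level in monocyte or dendritic cell-like cells (528 ± 198 CPM, SD, n = 4 libraries), followed by macrophage-like cells (217 ± 28.5), the same classes that carried Ccl2 beside the Ubd-C3 cluster. Cxcr3, the receptor of Cxcl10, was at 85.8 ± 29.1 CPM in T or NK cell-like cells, and Cx3cr1 at 342 ± 106 in macrophage-like cells. Neutrophil-like cells held 86.1% of the Cxcr2 UMIs. Podocyte-like cells held 42.2% of those of Ackr3, the scavenging receptor of Cxcl12, and endothelial cell-like cells held 88.1% of those of Ackr2.

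Of the 17 chemokine receptors listed, 14 had enough UMIs in the WT diet comparison and 6 were called higher and 0 lower, and in SP 6 of 13 were called higher and 0 lower. Over all genes, 7.95% were called higher and 4.44% lower in WT, and 9.4% and 3.88% in SP, which is the background for these and the following lists. Cxcr4 was at 10.4, 23.3, 10.9 and 24.8 CPM, with a log2 ratio of 1.16 (1.02 to 1.31) in WT and 1.19 (1.04 to 1.35) in SP. Ccr10, a receptor of plasma cells and skin-homing T cells, was at 1.00, 5.99, 0.452 and 9.23 CPM, and plasma cell-like cells held 79.2% of its UMIs. Of the 5 genes listed as atypical receptors (Ccrl2 and the Ackr genes, which bind chemokines without signalling through G proteins), 4 were compared. In WT 1 was called higher (Ccrl2, log2 ratio 0.62) and 1 lower (Ackr4, -0.94), and in SP 1 was called higher (Ccrl2, 0.75) and 0 lower. The median log2 ratio of the receptors was 0.46 in WT and 0.55 in SP, and that of the atypical receptors -0.27 and 0.23, beside 0.02 and 0.09 over all genes compared.

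Of the 26 other chemokine ligands listed, 5 of the 15 compared were called higher and 3 lower on HFD in WT, and 7 of 17 higher and 2 lower in SP, with median log2 ratios of 0.39 and 0.30. Ccl28, an epithelial ligand of Ccr10, was at 22.2, 115, 2.91 and 61.9 CPM, with log2 ratios of 2.37 (2.28 to 2.46) in WT and 4.41 (4.16 to 4.67) in SP. Ccl8, another monocyte attractant, was like Ccl2 in being lowest in WT-HFD, at 2.00, 0.243, 7.12 and 4.34 CPM, with a log2 ratio of -3.04 (-3.93 to -2.25) in WT and -0.71 (-0.98 to -0.45) in SP. Unlike Ccl2, 98.6% of its UMIs lay in macrophage-like cells, and in SP-ND 1 cell held 285 of its 331 UMIs. Cxcl9, a ligand of Cxcr3 like Cxcl10, had 3 UMIs on ND and 101 on HFD for WT, and 33 on ND and 101 on HFD for SP. Ccl21a, a ligand of Ccr7, was at 0 UMIs in WT-ND and 235 in WT-HFD, at least 65.9-fold higher in WT-HFD against a floor of 3 UMIs, but 223 in SP-ND and 47 in SP-HFD. In WT-HFD 1 cell held 218 of the 235 UMIs, and in SP-HFD 1 cell held 45 of the 47.

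Of 15 inflammatory genes, 3 of 13 compared were called higher and 0 lower on HFD in WT, and 2 of 15 higher and 2 lower in SP, with medians of 0.33 and 0.37. Ptgs2, which encodes cyclooxygenase-2, was at 3.75, 8.27, 4.91 and 11.8 CPM, and Tnf at 2.83, 4.53, 2.82 and 6.02 CPM, both higher on HFD in each genotype. Il1b, at 38.1, 56.6, 49.2 and 65.0 CPM, and Icam1, at 10.6, 15.02, 12.2 and 15.8 CPM, were also higher on HFD but stayed under 1.5-fold. Their log2 ratios were 0.57 (0.49 to 0.65) and 0.50 (0.35 to 0.66) in WT. In SP they were 0.40 (0.32 to 0.48) and 0.37 (0.20 to 0.53). The 22 immediate early and heat shock genes, which respond to tissue digestion, had 5 called higher and 0 lower in WT and 3 higher and 0 lower in SP, with medians of 0.25 and 0.08. Their summed level was 3941 CPM on ND and 4645 on HFD for WT, and 4654 on ND and 5039 on HFD for SP, and 18958, 21550.0, 17083 and 16813 CPM within macrophage-like cells. The part of digestion in the chemokine levels was not tested.

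The genes whose pattern was most like that of Ccl2, by Pearson correlation of log2(CPM + 1) over 81 groups of 1 class in 1 library, were H2-DMa (r = 0.77), Tnip3 (0.76), H2-M2 (0.76), Hpgds (0.75) and H2-DMb1 (0.75) out of 8283 genes. The groups of a library share its preparation and depth, and groups of a class share its cell type, so these are descriptions.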

How the data were processed

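Droplet scRNA-Seq was made from whole kidneys that were minced and digested with liberase, hyaluronidase and trypsin. The authors deposited UMI counts per gene and barcode, made with Cell Ranger on mm10 (version 2.1.1 in the submitters' processing notes, while other sources name another version). Every deposited barcode had at least 500 UMIs.

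Cells with 200 to 5000 genes and under 50% mitochondrial UMIs were kept, and 0.8% of cells per 1000 cells with the highest simulated-doublet score (50 neighbours, 30 components) were removed. Clusters came from CCA integration in Seurat 5.3.0 (R 4.3.3) with 2000 features, 50 components and a resolution of 0.5. Ratios were computed in Python 3.11.15 with numpy 2.4.6, scipy 1.17.1 and pandas 2.3.3, from pooled counts with exact Poisson, conditional binomial or Clopper-Pearson 95% intervals, which cover counting error only. The call rule was tested on simulated data with independent Poisson counts, the model its interval assumes. The simulation lacked the clumping of UMIs in few cells seen for Ccl2 and Ccl7, so it does not cover such genes. The members, gene lists and markers were chosen with earlier results of these data known. The text names the 10 members, up to 5 genes of each list with at least 100 UMIs by the size of the WT diet ratio, and the 5 genes most correlated with Ccl2. The 16 Ccl2-rich cells and their genes, the receptor levels by class and Ackr4 were chosen after their values were seen. Alternatives changed cell filters, doublets, scale, weighting, clustering, ambient RNA and thresholds. With 1 library per condition no test between conditions was made.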

Additional observations from a re-analysis of the deposited data

Results flagged for a closer look

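The diet ratio of Cxcl1 went in opposite directions in the genotypes, with a log2 ratio of HFD to ND of 0.86 in WT and -0.27 in SP. The SP ratio was under 1.5-fold and was not called. Both directions turned under alternatives, the WT ratio to -0.066 with equal weight for each class and the SP ratio to 0.26 as a mean over cells and 0.036 without the Ubd-C3 cluster. With 1 library per condition, the difference was not tested.

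Barcodes with 50% or more mitochondrial UMIs, which entered no comparison above, held Ccl3 and Cxcl12 at higher levels on HFD in both genotypes. In them Ccl3 had 31 UMIs on ND and 63 on HFD for WT, and 23 on ND and 70 on HFD for SP, with log2 ratios of 0.72 in WT and 2.09 in SP. Cxcl12 had 89, 199, 105 and 182 UMIs in the same order, with log2 ratios of 0.86 and 1.28. These differences were not tested. Other members went the other way there. Cxcl2 in SP was at 1.73 CPM on ND and 0.549 on HFD, Cxcl1 in SP at 4.40 and 3.54, Cxcl10 in SP at 3.51 and 3.16, and Ccl5 in WT at 3.68 and 2.88.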

How the results depend on the processing

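No paired analysis was possible because the labels carry no shared replicate numbers and each condition has 1 library. Over 10 alternatives the WT diet ratio of Ccl2 ran from -1.20 to 0.83, that of SP from -0.57 to 0.68, the ND genotype ratio from -0.23 to 0.92, and the HFD genotype ratio from 0.77 to 1.17. The alternatives that left out cells or the clusters held mostly by WT-HFD were chosen after seeing the data. Where a value changed, the cause was not tested.

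Without the Ubd-C3 cluster the Ccl2 ratio was 0.83 in WT and 0.68 in SP, and 0 members were called lower in WT. Without the 3 cells richest in each gene, Ccl2 was at -0.25 in WT and 0.20 in SP, 0 members were called lower in WT, 1 was called higher in SP-ND against WT-ND (Cxcl1), and the HFD genotype ratio of Ccl7 was -0.34. Without the 3 richest cells of the class, Ccl2 in the Ubd-C3 cluster was at -2.59 in SP (no UMI was left in WT-HFD), and Ccl7 in macrophage-like cells was at -0.77 for SP diet and -1.63 for HFD genotype. With equal weight for each class, Ccl2 was at -0.86 in WT and 0.29 in SP, 3 members were called higher in WT, 2 in SP and 1 in SP-ND against WT-ND, and the WT ratios of Cxcl1 and Cxcl2 were -0.066 and -0.075, and Cxcl10 was at 0.20 in SP-HFD against WT-HFD, where it was no longer called. As a mean over cells, Ccl2 was at -0.55 in WT and 0.18 in SP, with 0 members called lower in WT and 0 in SP-ND against WT-ND. With equal weight and as a mean over cells, a call rested on the fold and the UMI minimum alone, without an interval. Under 30% mitochondrial UMIs, Ccl2 was at -0.57 in SP, 2 members were called lower in SP (Cxcl1 and Cxcl12), and 4 were called higher and 0 lower in SP-ND against WT-ND. With every deposited barcode, Ccl2 was at -0.44 in SP, and 1 member was called higher and 2 lower in SP-ND against WT-ND. With doublets kept, 1 member was called higher there. At a fold of 2, 2 members were called higher in WT, and 1 higher and 0 lower in SP-ND against WT-ND. The share of Ccl5 in T or NK cell-like cells was 81.0% without integration, and at a resolution of 1.0 the shares in macrophage-like cells were 49.6% for Ccl3, 53.0% for Ccl4, 26.0% for Cxcl1 and 60.8% for Cxcl2.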
